A study of Mus musculus with 26 samples.

Results

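The imprinted genes described here are 33 mouse genes chosen by symbol from known imprinted loci, and each matched an identifier among the 54146 genes of the count files. They were measured by polyadenylated RNA sequencing in cultured mouse leukemia cells (acute myeloid leukemia, AML) derived from lineage-negative bone marrow cells that had been transduced with a retrovirus for MLL-AF9 (MA9), a fusion oncogene. The control arm, MA9+EV, carried the empty MSCVpuro vector as well, and the other arm, MA9+SETDB1, carried SETDB1, so that every library had MLL-AF9. Cells had been selected with puromycin in medium holding IL-3 and SCF, and each arm gave 3 libraries with 18070482 to 22561757 gene counts. The labels give neither the mouse strain nor the species of the introduced SETDB1, and they do not say whether the replicates came from separate transductions, so p-values measure only the spread between these libraries.

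An imprinted gene is expressed mainly from the copy inherited from the mother or from that inherited from the father, and the choice is carried by DNA methylation at an imprinting control region. The zinc finger protein ZFP57 binds methylated control regions and recruits KAP1 (the product of Trim28), which in turn brings in SETDB1, the methyltransferase for lysine 9 of histone H3, so that these loci are textbook sites of SETDB1 action. Many imprinted genes act in placental and fetal growth and are low in adult blood cells. The counts are per gene and hold no information on the parental copy, so they do not measure imprinting itself.

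The bases in front of the start sites of these genes are shown first, since ZFP57 and DNA methylation act on sequence. RefSeq promoter entries (GRCm38.p6) were used for 28 of the 33 genes, with 42 start sites. No entry was used for Sgce, Nap1l4, H19, Peg10 and Impact. Impact was left out before entries were counted, so whether it has an entry is not shown. The set of all genes was not restricted in this way, so the comparisons with all starts and genes below rest on slightly different selections. The 250 bases before each start were searched on both strands for TGCCGC, the core of the ZFP57 motif. A match was found before 6 of the 42 starts (14.3%), in 5 genes, against 8.68% of the 32851 starts of all genes. Both matching starts of Mest lie so close that their windows share the same matches, and by gene the shares were 17.9% of the 28 against 9.84% of 27025. The 5 genes were Zdbf2, Mest, Plagl1, Zim1 and Meg3, and none of them had more than 6 counts over the 6 libraries. A match is a description of the letters and not of binding, and control regions often lie outside this window. The windows of Zdbf2, a zinc finger gene, Plagl1, a zinc finger gene of growth control, and Meg3, a maternally expressed noncoding RNA, are shown with the motif in capitals on either strand (TGCCGC or GCGGCA).
Zdbf2 (chr1:63200108-63200357, plus strand): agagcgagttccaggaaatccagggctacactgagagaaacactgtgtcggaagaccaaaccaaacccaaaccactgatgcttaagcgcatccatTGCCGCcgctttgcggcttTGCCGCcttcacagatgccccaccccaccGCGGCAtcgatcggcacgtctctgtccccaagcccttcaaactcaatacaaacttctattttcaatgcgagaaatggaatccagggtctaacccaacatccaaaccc
Plagl1 (chr10:13090582-13090831, plus strand): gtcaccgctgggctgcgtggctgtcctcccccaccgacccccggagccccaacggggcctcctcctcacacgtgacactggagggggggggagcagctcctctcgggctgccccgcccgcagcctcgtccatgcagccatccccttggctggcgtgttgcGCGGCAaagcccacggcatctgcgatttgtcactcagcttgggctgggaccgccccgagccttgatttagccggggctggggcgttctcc
Meg3 (chr12:109540746-109540995, plus strand): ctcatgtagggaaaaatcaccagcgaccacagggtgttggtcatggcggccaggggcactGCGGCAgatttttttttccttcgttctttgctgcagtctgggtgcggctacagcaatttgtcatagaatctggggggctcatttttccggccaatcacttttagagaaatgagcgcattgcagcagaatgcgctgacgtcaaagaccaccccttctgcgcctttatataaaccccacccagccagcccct

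Zdbf2 held 3 matches and Plagl1 and Meg3 held 1 each. The other sequence feature of imprinted loci is the CpG dinucleotide, the site of DNA methylation, with a median of 10 per window over the 42 starts against 6 over all starts. The motif TGCCGC itself holds a CpG, so motif and CpG counts are not independent. Motif shares were not compared at equal CpG content. The windows of Igf2r and of the noncoding RNAs Airn and Kcnq1ot1 are shown because both noncoding RNAs silence neighbouring genes at their loci, Igf2r among them, with CpG in capitals.
Igf2r (chr17:12769707-12769956, minus strand): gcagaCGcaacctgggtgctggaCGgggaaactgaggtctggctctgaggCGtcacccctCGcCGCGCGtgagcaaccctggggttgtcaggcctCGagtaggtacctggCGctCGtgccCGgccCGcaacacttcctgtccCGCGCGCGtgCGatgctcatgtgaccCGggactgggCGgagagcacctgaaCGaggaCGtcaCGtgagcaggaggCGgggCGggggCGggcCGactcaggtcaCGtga
Airn (chr17:12741061-12741310, plus strand): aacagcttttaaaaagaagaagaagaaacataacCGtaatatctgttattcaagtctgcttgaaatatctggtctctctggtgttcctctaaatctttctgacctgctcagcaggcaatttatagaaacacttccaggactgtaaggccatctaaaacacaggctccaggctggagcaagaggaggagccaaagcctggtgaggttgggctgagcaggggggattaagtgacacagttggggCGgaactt
Kcnq1ot1 (chr7:143296548-143296797, minus strand): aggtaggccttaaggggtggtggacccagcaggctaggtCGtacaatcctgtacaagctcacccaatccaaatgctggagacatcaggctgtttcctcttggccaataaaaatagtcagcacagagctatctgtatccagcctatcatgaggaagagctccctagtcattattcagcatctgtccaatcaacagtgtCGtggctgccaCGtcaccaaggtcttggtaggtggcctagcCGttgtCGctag

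The Igf2r window held 27 CpG, that of Airn 2 and that of Kcnq1ot1 5. Igf2r and Airn, whose transcribed spans overlap, thus differed in CpG content in front of their starts. CpG at or after the starts was not counted, so these values do not describe the whole promoter.

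The libraries did not stand evenly apart. Over 7879 genes with at least 10 CPM (counts per 1000000 of the scaled library size) in the mean of each arm, the SD of the log2 difference between replicates 2 and 3 was 0.112 in MA9+EV and 0.107 in MA9+SETDB1, whereas replicate 1 differed from the others with an SD of 0.429 to 0.492. Setdb1 was higher in every MA9+SETDB1 library, at 107 ± 2.32 CPM (mean ± SD, n = 3) in the control arm against 562 ± 75.9 CPM (log2 ratio 2.39, SE 0.13; adjusted p = 2.4e-05 by edgeR). The arms also differed in blood lineage genes. All 8 mast cell and basophil markers and all 7 erythroid markers were called higher, and their summed levels were 48.2 to 84.8 and 0.743 to 1.51 CPM in MA9+EV against 11180 to 11359 and 993 to 1085 CPM in MA9+SETDB1. All 7 neutrophil granule markers were lower, with sums of 13679 to 16014 CPM in the controls against 43.8 to 125 CPM, and so were 5 of 6 monocyte markers (1 was higher), with sums of 2353 to 3869 and 276 to 346 CPM. Stromal markers summed to 1.08 to 1.56 and 36.1 to 83.6 CPM, with 1 of 2 tested genes higher and 1 lower. The endothelial markers Cdh5, Kdr and Tek, the B cell marker Pax5 and the T cell markers Cd3e and Cd4 had no counts. The part of these lineage and stromal differences in the imprinted gene results was not tested. In such bulk samples fewer cells of a type and less RNA per cell cannot be told apart.

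Of the 33 imprinted genes, 9 had no counts in any library, 9 had between 1 and 46 counts in all and stayed under the filter on low counts, and 15 were tested. Of all 54146 genes of the count files, 29551 had no counts in any library and 12986 were tested. The 9 without counts were Usp29, Zim1, Igf2, Snrpn, Magel2, Dlk1, Meg3, Nnat and Zdbf2, and a count of 0 over the 6 libraries allows a mean level of up to 0.0246 CPM (3 counts; counting error only). They include the fetal growth factor gene Igf2, the Notch-like ligand gene Dlk1 and the splicing protein gene Snrpn. Snrpn shares its span with Snurf, which was also at 0, and with 5 other genes, and reads that a counter assigns to more than 1 gene were set aside, so its 0 does not show absence. The same limit holds for Usp29, Igf2, Magel2, Meg3, Nnat and Zdbf2, which also overlap other annotated genes, as 19 of the 33 do. The ambiguous reads took 1.14% to 1.20% of the entries of each library.

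Genes that stayed under the filter were grouped by locus. None of the 4 genes of the Dlk1-Meg3 locus, none of the 5 of the Snrpn locus (the Prader-Willi region), none of the 3 of the Peg3 locus and neither H19 nor Igf2 was tested, whereas all 6 genes of the Kcnq1ot1 locus were. In the Dlk1-Meg3 locus, Rian, a noncoding RNA that hosts small nucleolar RNAs, had 1 count in MA9+EV replicate 1 and 1 in MA9+SETDB1 replicate 2. Mirg, a noncoding RNA that hosts microRNAs, had 0, 7 and 6 counts in MA9+SETDB1 replicates 1, 2 and 3 and 0 in each MA9+EV library. Replicate 1 of MA9+SETDB1 was thus at the level of the controls (edgeR adjusted p = 0.0494 without the filter on low counts). Taking 3 counts in all of MA9+EV as the floor, Mirg was 5.52-fold higher. This fold leaves out counting error in MA9+SETDB1, so it is not a lower bound. Mest, which encodes a hydrolase of mesoderm, had 2 counts in each MA9+SETDB1 library and 0 in MA9+EV. It was 2.55-fold higher by the same floor, again no lower bound, and it did not pass without the filter (edgeR adjusted p = 0.0622).

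In the Prader-Willi region, Peg12, a gene of the FRAT family that acts on Wnt signalling, had 9, 19 and 17 counts in MA9+EV and 1, 0 and 0 in MA9+SETDB1. The arms did not overlap, and the ratio of normalized counts was 35.4 in favour of MA9+EV (exact 95% counting interval 6.03 to 1427). Peg12 lay just under the filter, and without a filter its edgeR adjusted p was 0.0026. Ndn, the gene of the growth suppressor necdin, went the other way, with 1, 0 and 0 counts in MA9+EV and 3, 4 and 3 in MA9+SETDB1, a ratio of 12.7 (exact 95% counting interval 1.81 to 552), but without a filter it did not pass (edgeR adjusted p = 0.0556). Mkrn3, a ubiquitin ligase gene between them, had 2, 8 and 2 counts against 6, 1 and 4, with overlapping arms. The remaining detected genes were at the floor in both arms: H19 with 2 counts and Peg3 with 1, both in MA9+EV replicate 1, and Plagl1 with 2 in MA9+SETDB1 replicate 3.

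Of the 15 tested imprinted genes, 4 rose and 4 fell with SETDB1 at an edgeR adjusted p under 0.05, beside 53.5% of the 12986 genes tested. Higher were Phlda2, Grb10, Slc22a18 and Gnas, beside 27.4% of all tested genes, and lower were Igf2r, Tssc4, Peg10 and Airn, beside 26.2%. The share called among the imprinted genes, 53.3%, was close to that of the background, and so was the split by direction. The median log2 ratio of the 15 was -0.05, against -0.01 for all tested genes, and the median size regardless of sign was 0.99 against 0.62. Ascl2, Phlda2 and Grb10 passed the filter mainly through a single arm and so had to differ to some extent. The other 12 passed it in all 6 libraries, and 6 of them were called. Calls that also exceeded 2-fold numbered 4, all among the higher genes, beside 33.1% of all tested genes, and the arms did not overlap for 10, beside 64.6%. With the replicate number as a block, 4 stayed the number of higher genes and the lower ones numbered 2.

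**Figure D1:**
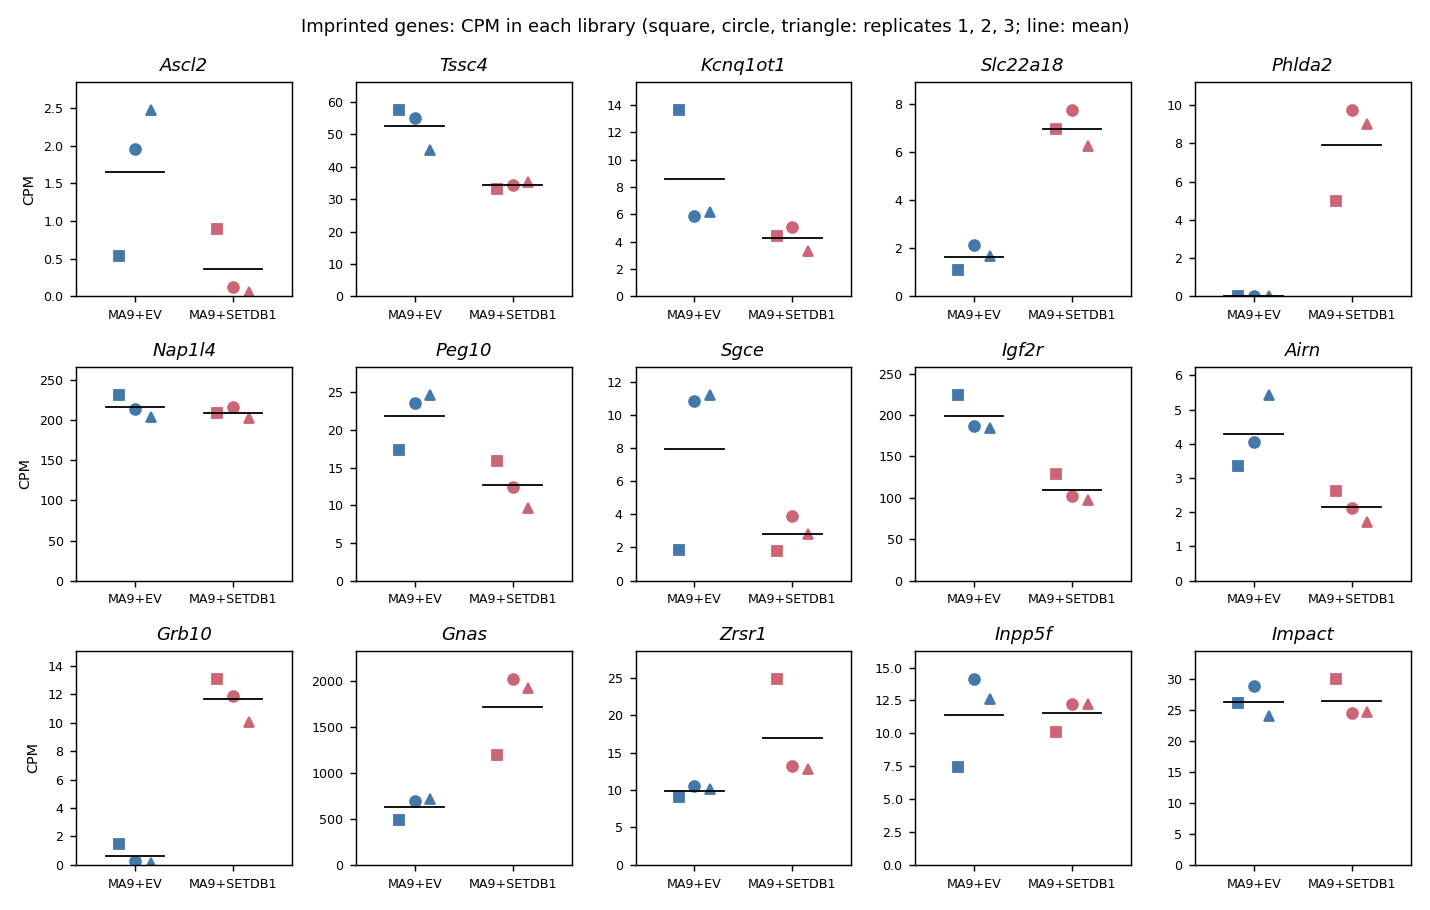
Level of each tested imprinted gene in CPM (vertical axes, from 0, each gene with its own scale) in the 3 MA9+EV (blue) and 3 MA9+SETDB1 (red) libraries, with squares, circles and triangles for replicates 1, 2 and 3 and a line at the mean. Phlda2 was at 0 in every MA9+EV library, and in Sgce and Ascl2 replicate 1 sat away from replicates 2 and 3.

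**Figure D2:**
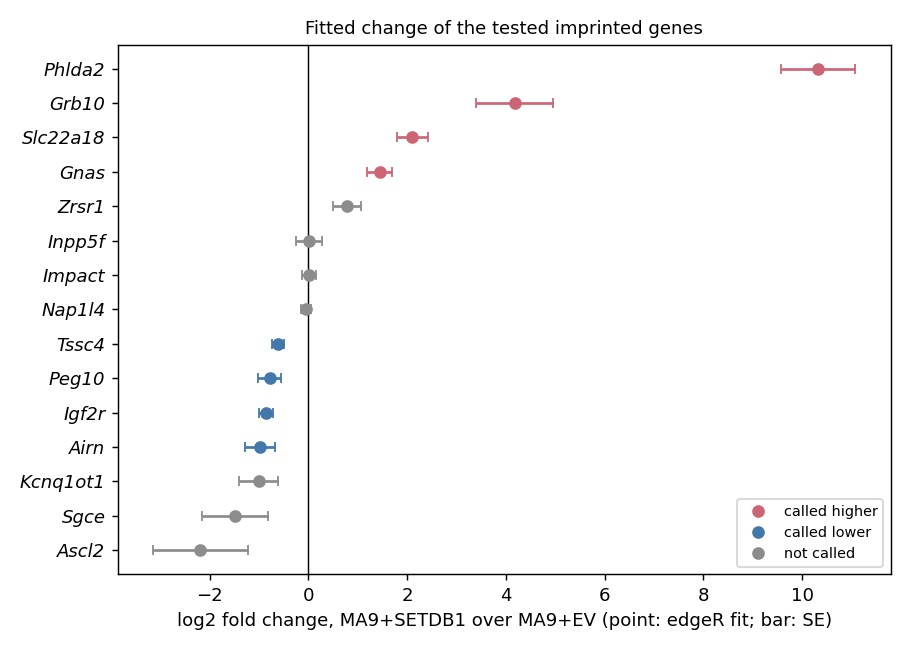
Fitted log2 fold change of the 15 tested imprinted genes, MA9+SETDB1 over MA9+EV (horizontal axis), with bars for the standard error and colours for the call. The 4 called higher ranged from 1.44 to 10.33 and the 4 called lower from -0.99 to -0.61; the value for Phlda2 depends on how the fit treats its zeros.

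The Kcnq1ot1 locus on chromosome 7 is controlled by the paternally expressed noncoding RNA Kcnq1ot1, which silences genes on both sides of it on its own chromosome. Phlda2 (ENSMUSG00000010760.5, GRCm38 chromosome 7, 143501545 to 143503145), a maternally expressed gene with a pleckstrin homology domain that restrains placental growth, had 0 counts in all 3 MA9+EV libraries and 89, 160 and 174 counts in MA9+SETDB1 replicates 1, 2 and 3. These were 4.98, 9.74 and 9.04 CPM. Every MA9+SETDB1 library was thus above every control, replicate 1 with the lowest of the 3 levels. Against the same 3-count floor, and leaving out counting error in MA9+SETDB1, Phlda2 was 179-fold higher (edgeR adjusted p = 0.000401).

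Slc22a18 (ENSMUSG00000000154.16, chromosome 7, 143473726 to 143499334), the organic cation transporter gene next to Phlda2, stood at 1.07, 2.12 and 1.66 CPM in the MA9+EV libraries against 6.94, 7.73 and 6.23 CPM with SETDB1. The arms did not overlap, and replicate 1 of MA9+SETDB1 lay between the other libraries of its arm. Its log2 ratio was 2.10 (SE 0.31; adjusted p = 0.0015 by edgeR). Nap1l4 (ENSMUSG00000059119.9, chromosome 7, 143513579 to 143549882), a histone chaperone gene on the other side of Phlda2, stood at 232, 214 and 205 CPM in the MA9+EV libraries against 210, 216 and 203 CPM with SETDB1. Its arms overlapped, and the log2 fold change of -0.05 (SE 0.10) did not pass (edgeR adjusted p = 0.692).

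Kcnq1ot1 itself (ENSMUSG00000101609.2, chromosome 7, 143213111 to 143296547) stood at 13.6, 5.89 and 6.20 CPM in the MA9+EV libraries against 4.42, 5.05 and 3.32 CPM with SETDB1. The arms did not overlap, but replicate 1 of MA9+EV was 2.25 times the mean of replicates 2 and 3, and the log2 fold change of -1.01 (SE 0.39) did not pass (edgeR adjusted p = 0.0661; 0.0375 with DESeq2, the lowest of the alternatives, which reached 0.187). It lies within Kcnq1, a potassium channel gene, which was listed with no counts. Tssc4 (ENSMUSG00000045752.13, chromosome 7, 143068416 to 143071093), whose product takes part in assembling splicing particles, stood at 57.4, 55.0 and 45.0 CPM in the MA9+EV libraries against 33.3, 34.3 and 35.4 CPM with SETDB1. Tssc4 fell by 0.61 in log2 units (SE 0.12; adjusted p = 0.00564 by edgeR), and the call was lost with replicates 2 and 3 of each arm summed (edgeR adjusted p = 0.0528, range over the alternatives 0.000197 to 0.0528). Ascl2 (ENSMUSG00000009248.6, chromosome 7, 142966822 to 142969264), a basic helix-loop-helix factor gene needed in the placenta, stood at 0.537, 1.95 and 2.47 CPM in the MA9+EV libraries against 0.895, 0.122 and 0.0519 CPM with SETDB1. Replicate 1 of each arm lay between the other libraries of both arms, and the fitted value of -2.19 (SE 0.96) did not pass (edgeR adjusted p = 0.0935). Without MA9+SETDB1 replicate 1 the Ascl2 value was -4.17 (edgeR adjusted p = 0.0125, range over the alternatives 0.0125 to 0.365).

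**Figure D3:**
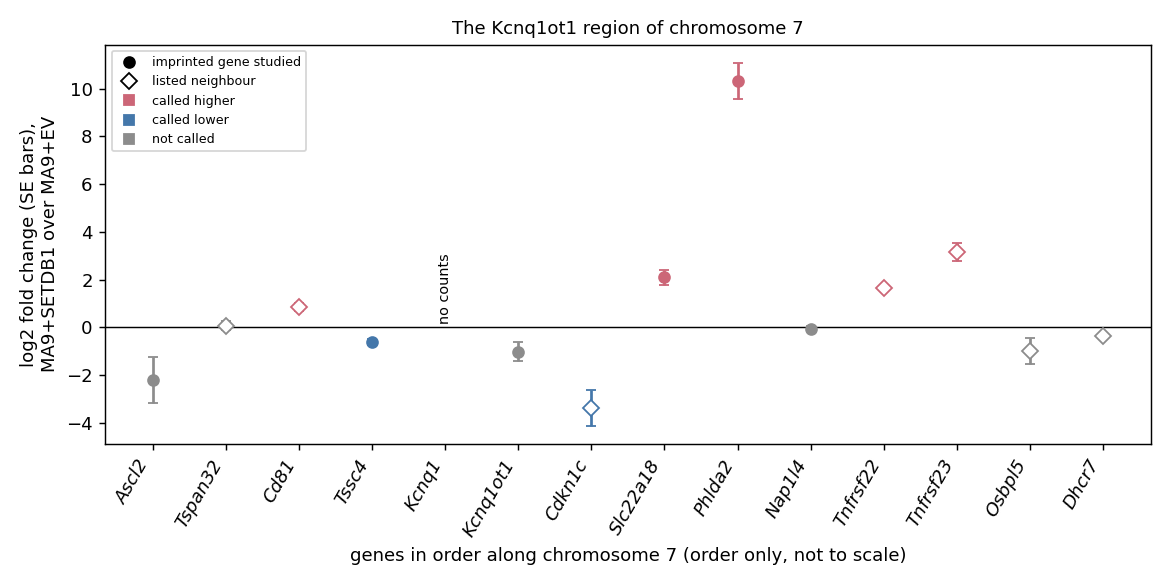
Fitted log2 fold change (vertical axis, with standard errors) of 14 genes in their order along the Kcnq1ot1 region of chromosome 7 (order only), filled circles for the imprinted genes studied and open diamonds for listed neighbours. Of the 13 tested genes 5 were called higher and 2 lower, beside 53.5% of all tested genes called in either direction.

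Of 13 tested genes of the region from Ascl2 to Dhcr7, 5 were called higher, 2 lower (Tssc4 and Cdkn1c, an imprinted cell cycle inhibitor gene named here after its values were seen) and 6 neither, beside 27.4% of all tested genes higher and 26.2% lower, so the share called was close to the background. Tnfrsf22, a decoy receptor gene, went from 17.5 ± 1.42 to 55.6 ± 5.33 CPM (n = 3 per arm; log2 fold change 1.66, SE 0.13; adjusted p = 9.28e-05 by edgeR).

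At the Airn-Igf2r locus on chromosome 17, the antisense noncoding RNA Airn is transcribed from the paternal copy and silences Igf2r there. Both fell in MA9+SETDB1. Igf2r (ENSMUSG00000023830.13, GRCm38 chromosome 17, 12682406 to 12769706), the mannose 6-phosphate and IGF2 receptor gene, stood at 225, 187 and 184 CPM in the MA9+EV libraries against 128, 102 and 97.4 CPM with SETDB1. The arms did not overlap, replicate 1 was the highest in each, and Igf2r fell by 0.86 in log2 units (SE 0.15; adjusted p = 0.00258 by edgeR). Airn (ENSMUSG00000078247.3, chromosome 17, 12741311 to 12859884) stood at 3.34, 4.07 and 5.44 CPM in the MA9+EV libraries against 2.63, 2.13 and 1.71 CPM with SETDB1. Its arms did not overlap either, and it fell by 0.99 (SE 0.31; adjusted p = 0.0313 by edgeR). The Airn call was lost with the replicate block (edgeR adjusted p = 0.0618), without the filter on low counts (0.0522), on summing replicates 2 and 3 (0.262) and without MA9+EV replicate 2 or 3 (0.0796 and 0.126) or MA9+SETDB1 replicate 2 or 3 (0.0986 and 0.115), and the lowest value of any alternative was 0.0145. Airn and Igf2r overlap on opposite strands, and since the strand setting of the counting is not given, reads of one may be counted with the other. Slc22a3, a transporter gene that Airn silences in the placenta, rose from 33.8 ± 3.02 to 240.0 ± 66.4 CPM (log2 ratio 2.83, SE 0.21; adjusted p = 8.14e-05 by edgeR), and its neighbour Slc22a2 had no counts.

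At the Peg10-Sgce locus on chromosome 6, a pair of paternally expressed genes are read in opposite directions from neighbouring starts. Peg10 (ENSMUSG00000092035.8, GRCm38 chromosome 6, 4747306 to 4760517), a gene derived from a retrotransposon and needed in the placenta, stood at 17.3, 23.6 and 24.7 CPM in the MA9+EV libraries against 15.9, 12.5 and 9.66 CPM with SETDB1. The arms did not overlap, but both replicates 1 lay close together, and the others were further apart. Peg10 fell by 0.79 in log2 units (SE 0.24; adjusted p = 0.0278 by edgeR), a call that was lost with the replicate block (0.0526), with replicates 2 and 3 summed (0.217) and without MA9+EV replicate 2 or 3 (0.0863 and 0.0934) or MA9+SETDB1 replicate 2 or 3 (0.0812 and 0.0832), and the lowest value of any alternative was 0.00725.

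Sgce (ENSMUSG00000004631.15, chromosome 6, 4674350 to 4747204), the epsilon-sarcoglycan gene, stood at 1.86, 10.8 and 11.2 CPM in the MA9+EV libraries against 1.79, 3.90 and 2.80 CPM with SETDB1. MA9+EV replicate 1 was at the level of the MA9+SETDB1 libraries, 5.94-fold below the mean of replicates 2 and 3, while Peg10 in the same library was 1.39-fold below. The log2 fold change of Sgce, -1.49 (SE 0.67), did not pass (edgeR adjusted p = 0.1003), but passed without MA9+EV replicate 1 (-1.97, edgeR adjusted p = 0.00559) and with DESeq2 (adjusted p = 0.0486), and the alternatives ranged up to 0.317. On the far side of Peg10, Ppp1r9a, the neurabin gene, fell from 18.5 ± 4.06 to 0.1504 ± 0.131 CPM (log2 ratio -6.90, SE 0.60; adjusted p = 0.000145 by edgeR), and the paraoxonase gene Pon2 rose from 68.5 ± 8.91 to 342 ± 58.5 CPM (log2 ratio 2.32, SE 0.17; adjusted p = 8.12e-05 by edgeR).

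Grb10 (ENSMUSG00000020176.17, GRCm38 chromosome 11, 11930499 to 12037428) encodes an adaptor that restrains signalling by insulin and growth factor receptors. It had 36, 7 and 2 counts in MA9+EV and 234, 195 and 193 in MA9+SETDB1, or 1.49, 0.290 and 0.101 CPM against 13.1, 11.9 and 10.0 CPM. The highest control library was well under the lowest MA9+SETDB1 library, although MA9+EV replicate 1 was 7.60 times the mean of replicates 2 and 3. Its log2 ratio was 4.18 (SE 0.78; adjusted p = 0.00386 by edgeR), and without MA9+EV replicate 1 it was 5.80 (edgeR adjusted p = 0.000331, range over the alternatives 9.97e-08 to 0.0310). Both listed neighbours of Grb10 also rose. Ddc, the aromatic amino acid decarboxylase gene, went from 0.784 ± 0.215 to 13.6 ± 7.06 CPM (log2 ratio 4.10, SE 0.46; adjusted p = 0.00043 by edgeR). Cobl, an actin nucleator gene, had 0 counts in MA9+EV and 258, 343 and 380 in MA9+SETDB1. Against the 3-count floor, and leaving out counting error in MA9+SETDB1, Cobl was 416-fold higher (edgeR adjusted p = 9.55e-05).

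Gnas (ENSMUSG00000027523.19, GRCm38 chromosome 2, 174284320 to 174346744) lies at a locus that gives the stimulatory G protein alpha subunit, expressed from both copies in most tissues, and further transcripts from a single parental copy, which the gene count does not separate. Gnas stood at 485, 693 and 714 CPM in the MA9+EV libraries against 1198, 2020 and 1921 CPM with SETDB1. Replicate 1 was the lowest in each arm and the arms did not overlap, with a log2 ratio of 1.44 (SE 0.25; adjusted p = 0.00307 by edgeR). Nespas, the noncoding RNA antisense to the upstream Gnas transcripts, went from 0.178 ± 0.0207 to 3.47 ± 0.476 CPM (log2 ratio 4.25, SE 0.32; adjusted p = 8.81e-05 by edgeR). Without the strand setting, reads of Nespas and of overlapping Gnas exons cannot be told apart.

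The remaining tested genes stand alone at their loci. Zrsr1 (ENSMUSG00000044068.7, chromosome 11, 22972005 to 22976496), a paternally expressed splicing factor gene inside an intron of Commd1, stood at 9.04, 10.5 and 10.1 CPM in the MA9+EV libraries against 24.9, 13.2 and 12.9 CPM with SETDB1. Every MA9+SETDB1 library was above the controls, and replicate 1 of MA9+SETDB1 was the highest, at 1.91 times the mean of replicates 2 and 3. The log2 fold change of 0.78 (SE 0.29) did not pass (edgeR adjusted p = 0.0579), while it passed without MA9+SETDB1 replicate 1 (0.41, adjusted p = 0.0489) or replicate 3 (0.95, adjusted p = 0.0488) and with DESeq2 (adjusted p = 0.0254), and the alternatives ranged up to 0.135. Inpp5f (ENSMUSG00000042105.18, chromosome 7, 128611181 to 128696436), a phosphoinositide phosphatase gene of which only an inner transcript is imprinted, stood at 7.43, 14.1 and 12.6 CPM against 10.1, 12.2 and 12.2 CPM. Impact (ENSMUSG00000024423.5, chromosome 18, 12954690 to 12992950), which encodes an inhibitor of the amino acid sensor GCN2, stood at 26.2, 28.9 and 24.1 CPM against 30.1, 24.6 and 24.7 CPM. Both had overlapping arms, and their log2 fold changes of 0.01 (SE 0.27; adjusted p = 0.967 by edgeR) and 0.00406 (SE 0.14; adjusted p = 0.982 by edgeR) turned negative under upper-quartile scaling.

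The imprinted genes varied between libraries of one arm. In MA9+EV, 4 of the 14 tested imprinted genes with counts in every library differed more than 2-fold between libraries, beside 15.4% of all such genes, and these were Grb10, Sgce, Ascl2 and Kcnq1ot1. In MA9+SETDB1, 2 of 15 did, Ascl2 and Sgce, beside 17.7%. Replicate 1 lay outside the range of replicates 2 and 3 for 13 of the 15 genes in MA9+EV and 12 in MA9+SETDB1. Phlda2, at 0 in every MA9+EV library, could not lie outside there. The share over all tested genes was not counted. Since replicate 1 also stood apart over the 7879 genes compared above, these counts are not read as a trait of the imprinted genes. Sgce was lower in replicate 1 of both arms, whereas Ascl2 was 4.11-fold lower in replicate 1 of MA9+EV and 10.3-fold higher in replicate 1 of MA9+SETDB1 than in the mean of the others.

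**Figure D4:**
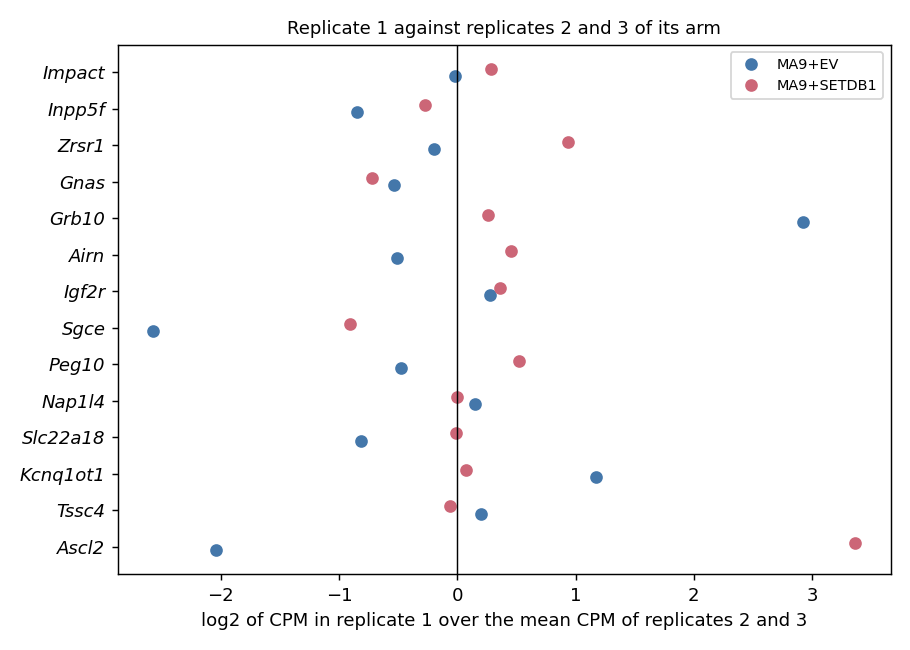
Log2 of the CPM in replicate 1 over the mean CPM of replicates 2 and 3 (horizontal axis) for the tested imprinted genes other than Phlda2, in MA9+EV (blue) and MA9+SETDB1 (red). Sgce lay to the left in both arms, and Grb10 in MA9+EV and Ascl2 in MA9+SETDB1 lay far to the right.

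Of 27 tested genes that set, keep or read imprints, 6 were called higher, Setdb1 itself among them by design, and 8 lower, 51.9% together, close to the 53.5% of all tested genes, with a median log2 fold change of -0.15. Zfp57, Dnmt3b and Tet1 did not reach the filter in every library and were all called; of the other 24, 11 were called. Zfp57, which encodes the zinc finger protein that binds imprinting control regions, fell from 5.45, 4.73 and 6.75 CPM in the controls to 0.839, 0.548 and 0.156 CPM in MA9+SETDB1. The arms did not overlap, and its log2 fold change was -3.45 (SE 0.53; adjusted p = 0.0017 by edgeR). Trim28, its corepressor gene, stood at 389 ± 58.4 and 309 ± 7.99 CPM (n = 3 per arm) and did not pass (log2 ratio -0.33, SE 0.13; adjusted p = 0.0714 by edgeR; 0.0348 under upper-quartile scaling and up to 0.246 in the other alternatives).

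Among the DNA methyltransferase genes, the de novo enzyme genes moved apart. Dnmt3b fell from 13.5 ± 0.447 to 0.356 ± 0.130 CPM (log2 ratio -5.23, SE 0.30; adjusted p = 2.6e-05 by edgeR), and Dnmt3a rose from 11.7 ± 0.854 to 33.1 ± 9.61 CPM (log2 ratio 1.504, SE 0.24; adjusted p = 0.00203 by edgeR). Dnmt1, which maintains methylation through cell division, stood at 501 ± 93.1 and 373 ± 70.4 CPM and did not pass (log2 ratio -0.43, SE 0.19; adjusted p = 0.0991 by edgeR), but it passed with the replicate block (edgeR adjusted p = 0.0142) and without MA9+SETDB1 replicate 1 (0.0304), and the alternatives ranged up to 0.296. Uhrf1, which guides DNMT1 to newly copied DNA, and Hells, a remodeller needed for DNA methylation, fell by 0.82 (SE 0.12; adjusted p = 0.00149 by edgeR) and 1.59 (SE 0.19; adjusted p = 0.000565 by edgeR) on the log2 scale. The H3K9 methyltransferase gene Ehmt1 fell by 0.92 (SE 0.13; adjusted p = 0.00109 by edgeR), and Daxx, a chaperone gene for histone H3.3, rose by 0.53 (SE 0.11; adjusted p = 0.00527 by edgeR), a call lost on summing replicates 2 and 3 (0.102, range over the alternatives 9.67e-05 to 0.102).

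Of 47 further genes in or next to imprinted loci, 14 had no counts and 26 were tested, of which 13 were called higher and 6 lower, 73.1% together beside 53.5% of all tested genes. Of the 26, 5 passed the filter without reaching it in every library (Cobl, Nespas, Ppp1r9a, Cdkn1c and Htr2a), and 4 of these were called, so part of that share is fixed by the filter; of the other 21, 15 were called. Peg13, a paternally expressed noncoding RNA inside Trappc9, fell from 31.1 ± 3.99 to 8.29 ± 0.826 CPM (log2 ratio -1.91, SE 0.16; adjusted p = 0.000141 by edgeR). Not all of these genes are imprinted in blood cells, and no test compared their share with the background.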

How the data were processed

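RNA-seq of 3 MA9+EV and 3 MA9+SETDB1 libraries was used; the other 20 samples were not analysed here. The deposited values were raw read counts per gene for 54146 versioned Ensembl identifiers, without normalization. Per the labels, libraries were strand-specific and poly-A selected. The submitters' processing notes name GRCm38 and, among other tools without roles, STAR 2.6.0c, HTSeq 0.11.0 and DESeq2 3.8; the sources used here do not give the strand setting. The 5 summary lines of each file (24.6% to 26.3% of entries) were left out. Symbols came from a table of identifiers (52480 matched with version, 1599 without, 67 unmatched), coordinates from RefSeq (GRCm38.p6).

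Genes were filtered with filterByExpr (10 counts at the median library size), scaled with TMM and compared by the quasi-likelihood test of edgeR (version 4.0.16, R 4.3.3), with Benjamini-Hochberg adjustment over 12986 genes and a threshold of 0.05. Standard errors were derived from the F statistic. The fit was tested on simulated data. The simulated counts spread less between libraries than the real ones, and no simulated replicate stood apart. That test therefore does not cover the calls made here. Alternatives were DESeq2 1.42.0, other scalings and filters, a replicate block, leaving out each library, and summing replicates 2 and 3. Levels are compared between arms and not between genes, since no transcript lengths were used.

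The members and gene lists were chosen with earlier results of these data known. All members, the 8 smallest p-values of both other lists, and Setdb1, Zfp57, Trim28 and Dnmt1 were named. Titles number replicates 1 to 3 in each arm, and deviations of same-numbered libraries correlated at 0.413, 0.366 and 0.341. Replicate 2 of MA9+EV correlated as well with replicate 3 of MA9+SETDB1 (0.415), so the pairing rests on replicate 1. The counting intervals and floors cover counting error only, since reads carry no molecular identifiers. Folds against the 3-count floor leave out counting error in MA9+SETDB1.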

Additional observations from a re-analysis of the deposited data

How the results depend on the processing

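Of the 15 tested imprinted genes, 6 kept their direction and their side of the threshold in each of the 13 alternatives they were tested in (Phlda2, Grb10, Slc22a18, Gnas, Igf2r and Nap1l4). The other 9 changed call or direction in at least 1. The number of imprinted genes called lower was 4 with all libraries, 2 with the replicate block, 2 with replicates 2 and 3 of each arm summed and 2 to 6 when single libraries were left out; it was 2 without MA9+EV replicate 2 and 2 without MA9+EV replicate 3. The number called higher was 4 to 5 throughout. The replicate block ended the calls of Peg10 and Airn and made that of Dnmt1. With replicates 2 and 3 summed, 2292 of all genes were higher and 1928 lower, 2 machinery genes were higher and 3 listed neighbours were lower, with fewer libraries in the fit. Values near 0 turned: Inpp5f to -0.0530 under upper-quartile scaling and to -0.22, -0.03 and -0.02 without MA9+EV replicate 1, MA9+SETDB1 replicate 2 and MA9+SETDB1 replicate 3 (range without single libraries -0.222 to 0.193), and Impact to -0.0620 under upper-quartile scaling and to -0.00542, -0.07 and -0.0860 without MA9+EV replicate 1, MA9+EV replicate 3 and MA9+SETDB1 replicate 1 (highest 0.0676). The cause of these changes was not tested. Ascl2 did not pass the filter of 1 CPM in 3 libraries, which gave no value for it. At the depth of these libraries, none of the 18 untested genes had more than 46 counts over the 6 libraries. The part of depth in this was not tested.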
